A study of Homo sapiens with 8 samples.

Results

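The expression of 10 alpha and beta tubulin genes was examined in BT474, a line of human breast carcinoma cells in which the ERBB2 gene is amplified, sampled as 4 NPY1R high and 4 NPY1R low libraries. NPY1R encodes the neuropeptide Y receptor Y1. The members were the 10 rows of the count table, out of 26475, with the symbols TUBA1A, TUBA1B, TUBA1C and TUBA4A (alpha) and TUBB, TUBB2A, TUBB2B, TUBB3, TUBB4B and TUBB6 (beta). All 10 passed the filter on low counts. By its title the series is about cells that persist under lapatinib, which blocks the EGFR and ERBB2 kinases. The labels name no drug, time point or genetic change for these 8 libraries. They give high or low NPY1R under genotype and do not say how the cells were obtained, whether a group is a clone, or whether replicates came from separate cultures. Statistical error below therefore covers only the spread between these libraries, which may be technical.

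The 10 symbols were chosen with the levels and group differences of these data known. Their levels, differences and overlaps are therefore given as descriptions without a test. Tests are given for lists of partner genes (tubulin folding, modification and microtubule dynamics). Those lists were also drawn up with earlier results of these data known, so their counts are no independent evidence.

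Microtubules are hollow filaments built from dimers of alpha and beta tubulin. They form the mitotic spindle, carry vesicles and organelles, and hold up cilia and axons. Humans have several genes for each kind of tubulin. Across the family these proteins are nearly alike in the folded body. They tend to differ most in the acidic tail at the carboxyl end, where enzymes add or remove tyrosine, glutamate and glycine. Cells hold soluble tubulin steady by autoregulation: when free dimers are plentiful, TTC5 recognises the first residues of tubulin as they leave the ribosome, and the translating mRNA is degraded.

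Total expected counts ranged from 18025648 to 30609791 per library. NPY1R itself ranged from 699.2 to 1049 CPM (counts relative to library size, scaled between libraries by TMM) in NPY1R high and from 90.8 to 103.7 CPM in NPY1R low, so the libraries match their labels. All 7 markers listed for a luminal breast cancer cell line were present, summing to 6052 to 8382 CPM over the libraries. ERBB2, which is amplified in this line, supplied 2632 to 4289 CPM. Of the fibroblast markers, COL1A2 and PDGFRB were at 0 and COL1A1 reached 17.5 CPM. Of the leukocyte markers, CD3E was at 0, and PTPRC and CD14 had at most 1 count. Among endothelial markers, PECAM1 had at most 4 counts and VWF reached 17.8 CPM. The GC content of transcripts also moved with the library. For each library, Spearman's rho was taken across genes between GC content and the departure from the gene's mean over all libraries of both groups. It was highest in NPY1R low replicate 1 (0.454) and lowest in NPY1R high replicate 3 (-0.422) and NPY1R low replicate 4 (-0.556). For the tubulin genes, differences with this trend removed or within replicates 1 and 2 and within 3 and 4 are given where they differ most, and for the partner genes where removing the trend changed a call.

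The tubulin genes share much of their sequence, which bears on how reads were divided between them. The coding starts show the stretch read by the autoregulation machinery, taken from the principal transcripts of GENCODE release 29 (GRCh38), 5′ to 3′, with codons 1 to 4 in capitals.
TUBA1A: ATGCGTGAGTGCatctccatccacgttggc
TUBA4A: ATGCGTGAATGCatctcagtccacgtgggg
TUBB: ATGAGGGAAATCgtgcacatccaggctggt
TUBB2A: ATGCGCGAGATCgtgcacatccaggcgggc
TUBB6: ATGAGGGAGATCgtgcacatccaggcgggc
TUBA1A, TUBA1B and TUBA1C were identical over all 30 bases of this stretch. TUBA1A and TUBA1B were also identical over the last 60 coding bases before the stop codon, so the encoded tails of these 2 genes do not differ. The fourth codon was TGC in the 4 alpha genes and ATC in the 6 beta genes.

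Over whole coding sequences, TUBA1A was 97.2% identical to TUBA1B and 95.9% to TUBA1C, TUBB2A was 98.2% identical to TUBB2B, and alpha and beta genes were 51.9% to 54.0% identical. Of the 50-base windows in the principal transcript, 58.9% of those of TUBA1A, 37.3% of TUBA1B and 74.9% of TUBA1C were found in no transcript of another gene in GENCODE release 29. With 100-base windows these shares were 81.7%, 62.8% and 88.5%. They were 34.5% for TUBB2A, 47.8% for TUBB2B, 81.8% for TUBB, 90.1% for TUBB4B, 94.8% for TUBA4A and 99.01% for TUBB6 at 50 bases. TUBB3 had 10.6%, most of its windows also lying in AC092143.1, an overlapping gene model of that release. The expected counts of TUBB were whole numbers in 8 of 8 libraries and those of the other 9 genes in 0. Estimated counts of TUBA1A, TUBA1B, TUBA1C, TUBB2A, TUBB2B and TUBB3 are uncertain to the extent that shared reads were divided wrongly. In the RefSeq annotation of GRCh38.p14, TUBA4A also overlaps STK16 and TUBB6 overlaps AFG3L2, and the use of strand in counting is not given in the sources used here.

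TUBA1A, an alpha isotype best known from developing neurons, was the member with the largest difference. In NPY1R high replicates 1 to 4 it stood at 108.6, 108.0, 110.6 and 111.0 CPM. In NPY1R low replicates 1 to 4 it stood at 27.4, 27.0, 24.3 and 27.8 CPM. The 4 NPY1R high libraries lay close together and all far above the NPY1R low libraries, with no overlap. The means were 109.6 ± 1.49 and 26.6 ± 1.56 CPM (SD, n = 4 each), a log2 difference of 2.04 (SE 0.06), or 4.11-fold. It was 1.99 between replicates 1 and 2 alone, 2.09 between replicates 3 and 4 alone, and 2.06 (SE 0.06) with the GC trend removed. Among 14008 tested genes, 80 had a larger rise, 4 of them at a mean CPM no lower than that of TUBA1A.

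TUBA1B, the most abundant alpha gene and a standard housekeeping isotype, stood lower in NPY1R high. Its levels were 1674, 1639, 1419 and 1427 CPM in NPY1R high replicates 1 to 4 and 2180, 2164, 2033 and 2011 CPM in NPY1R low. Every NPY1R high library was below every NPY1R low library. The log2 difference was -0.45 (SE 0.07), which is 26.6% lower. Its neighbour TUBA1C, also widely expressed, had 382.5, 367.3, 349.2 and 344.6 CPM in NPY1R high and 501.5, 461.3, 449.6 and 428.4 CPM in NPY1R low, again without overlap. Its log2 difference was -0.35 (SE 0.06). TUBA1B and TUBA1C had the closest profiles of any pair of members, with a root mean square difference of 0.07 in centred log2 CPM over the 8 libraries. The ratio of TUBA1B to TUBA1C counts ranged from 4.07 to 4.70 and overlapped between the groups. The ratio of TUBA1B to TUBA1A counts was 14.1 ± 1.42 in NPY1R high and 78.9 ± 4.68 in NPY1R low (SD, n = 4 each).

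TUBA4A, which lies on chromosome 2 apart from the others, was the scarcest alpha member. It had 4.35, 3.79, 3.61 and 3.32 CPM in NPY1R high and 8.34, 8.26, 6.97 and 5.29 CPM in NPY1R low. The groups did not overlap, and the NPY1R low libraries were the more spread. The log2 difference was -0.93 (SE 0.17), and -0.89 (SE 0.14) with the GC trend removed. The direction of all 4 alpha differences was the same under every scaling, filter, tool and left-out library in which the gene was fitted on its own. With TUBA1A, TUBA1B and TUBA1C summed to 1 row, the log2 difference of the sum was -0.36 (SE 0.07). In bulk samples a change in the mix of cells and a change per cell cannot be told apart.

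**Figure D1:**
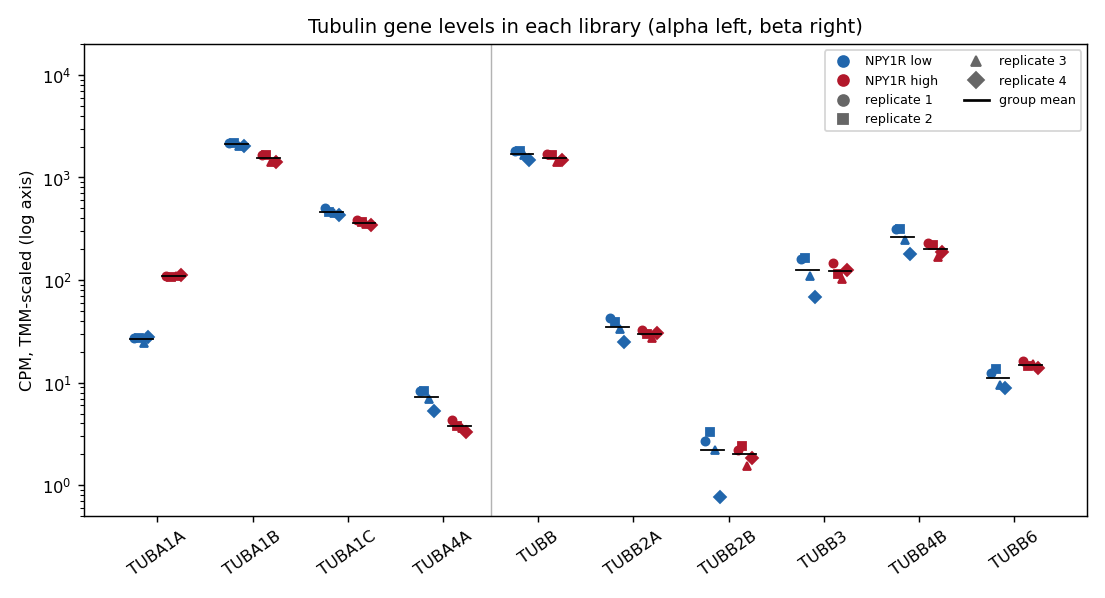
Level of each tubulin gene in each library, in CPM on a log axis, with NPY1R low in blue, NPY1R high in red, a symbol shape per replicate number and a black bar at the group mean (n = 4). The NPY1R high points of TUBA1A lie together at 108.0 to 111.0 CPM, above the NPY1R low points at 24.3 to 27.8 CPM, while TUBA1B, TUBA1C and TUBA4A lie lower in NPY1R high.

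TUBA1A, TUBA1B and TUBA1C lie beside each other on chromosome 12 of GRCh38.p14, TUBA1B at 49127782 to 49131395, TUBA1A at 49184795 to 49189080 and TUBA1C at 49227926 to 49274600. Gaps of 53.4 kb and 38.8 kb separate TUBA1A from its neighbours. Because TUBA1A differed in direction from both, the promoters of the 3 genes are shown, from RefSeq on GRCh38.p14, 250 bases before to 50 after the start of transcription, 5′ to 3′ on the strand of the gene. Capitals mark CCAAT and TATAAA on either strand. The windows are chr12:49189031-49189330 (minus strand) for TUBA1A, chr12:49131346-49131645 (minus strand) for TUBA1B and chr12:49264832-49265131 (plus strand) for TUBA1C, the window of 3 that holds the start of its principal transcript.
TUBA1A: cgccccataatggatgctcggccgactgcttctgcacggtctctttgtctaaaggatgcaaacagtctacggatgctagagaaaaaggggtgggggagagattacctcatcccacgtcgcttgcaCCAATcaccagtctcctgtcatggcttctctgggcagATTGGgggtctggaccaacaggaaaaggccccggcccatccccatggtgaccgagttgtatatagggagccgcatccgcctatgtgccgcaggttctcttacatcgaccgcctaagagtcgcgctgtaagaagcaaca
TUBA1B: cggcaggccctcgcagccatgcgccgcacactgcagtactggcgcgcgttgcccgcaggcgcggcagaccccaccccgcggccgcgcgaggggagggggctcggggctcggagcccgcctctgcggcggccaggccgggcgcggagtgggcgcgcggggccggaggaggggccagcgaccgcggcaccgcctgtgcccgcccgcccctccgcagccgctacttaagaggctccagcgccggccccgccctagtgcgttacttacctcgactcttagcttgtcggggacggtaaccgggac
TUBA1C: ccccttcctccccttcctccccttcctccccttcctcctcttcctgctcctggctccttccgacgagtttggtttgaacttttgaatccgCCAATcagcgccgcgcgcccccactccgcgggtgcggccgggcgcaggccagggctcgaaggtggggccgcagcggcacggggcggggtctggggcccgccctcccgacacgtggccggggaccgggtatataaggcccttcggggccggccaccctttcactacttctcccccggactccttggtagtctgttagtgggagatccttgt
The TUBA1A window was 55.7% G and C, against 77.0% for TUBA1B and 67.7% for TUBA1C. CCAAT occurred at 2 places in TUBA1A, 0 in TUBA1B and 1 in TUBA1C, and 34.6% of 35093 promoter windows of this length hold it. GGGCGG occurred at 0, 3 and 2 places, and 44.9% of windows hold it. TTTGAA occurred at 0, 0 and 2 places, and 15.2% of windows hold it. TATAAA occurred in none of the 3 windows, and 11.5% of all windows hold it. Only this exact spelling was searched, so similar stretches such as tatataag in the TUBA1C window were not counted. Its absence does not show that a promoter lacks a TATA box. Both strands were searched, and no match of a motif overlapped a match of another in these 3 windows. These are matches of letters, not sites of binding.

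Of the 6 beta genes, 5 overlapped between the groups. TUBB, the main beta gene of dividing cells, had 1683, 1662, 1403 and 1480 CPM in NPY1R high and 1829, 1814, 1644 and 1475 CPM in NPY1R low. The groups overlapped, and the log2 difference was -0.12 (SE 0.09). TUBB4B, a widely expressed isotype that is also a major component of cilia, had 232.0, 219.4, 169.4 and 188.9 CPM in NPY1R high and 313.8, 313.9, 244.6 and 180.0 CPM in NPY1R low. NPY1R low replicate 4 lay inside the NPY1R high range and the other NPY1R low libraries above it. The log2 difference was -0.38 (SE 0.17), and -0.33 (SE 0.10) with the GC trend removed.

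TUBB6, a class V beta tubulin of low abundance in most cells, was the member besides TUBA1A with higher values in NPY1R high. It had 16.3, 14.6, 15.0 and 13.98 CPM in NPY1R high and 12.5, 13.7, 9.42 and 8.81 CPM in NPY1R low. The groups were separated by a narrow gap, from 13.71 to 13.98 CPM. The log2 difference was 0.43 (SE 0.15). The first pair of replicates gave 0.24, the second pair 0.67, and removal of the GC trend 0.48 (SE 0.10).

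TUBB3, the neuronal class III beta tubulin studied in tumours for its link to taxane resistance, showed no separation. It had 147.1, 114.6, 102.6 and 124.9 CPM in NPY1R high and 159.8, 165.0, 109.8 and 68.1 CPM in NPY1R low. The NPY1R low libraries spanned a wider range than the NPY1R high libraries, with replicate 4 lowest of all 8. The log2 difference was -0.04 (SE 0.24), with -0.32 in replicates 1 and 2 and 0.39 in replicates 3 and 4. With the GC trend removed it was 0.03 (SE 0.14). Its transcripts were 61.4% G and C at the median, the highest of the members.

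TUBB2A and TUBB2B, near-identical genes with 66.7 kb between them on chromosome 6, both overlapped between the groups. TUBB2A had 27.4 to 32.6 CPM in NPY1R high and 24.7 to 42.6 CPM in NPY1R low, with a log2 difference of -0.22 (SE 0.15). It was -0.39 in replicates 1 and 2, 0.02 in replicates 3 and 4, and -0.17 (SE 0.09) with the GC trend removed. TUBB2B had 1.56 to 2.43 CPM in NPY1R high and 0.771 to 3.28 CPM in NPY1R low, with a log2 difference of -0.16 (SE 0.36). It was -0.35 and 0.33 in these pairs of replicates, and -0.11 (SE 0.31) with the GC trend removed. NPY1R low replicate 4 was lowest for both. The sum of both genes differed by -0.21 (SE 0.16) on the log2 scale.

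In edgeR's quasi-likelihood test across all genes, 1 member (TUBA1A) was called higher, where 5.78% of tested genes were, and 3 members (TUBA1B, TUBA1C and TUBA4A) were called lower, where 7.81% were. NPY1R high lay wholly above NPY1R low for 2 members, against 8.77% of all tested genes, and wholly below for 3, against 11.4%, which makes 5 members without overlap, against 20.2%. With the GC trend removed, 2 members were called higher (TUBB6 added), where 7.32% of tested genes were, and 4 lower (TUBB4B added), where 10.6% were. DESeq2 also called TUBB6 and did not call TUBB4B. The members were chosen from this contrast, so nothing is read from these counts. The median log2 difference of the members was -0.19, against -0.03 for all tested genes.

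**Figure D2:**
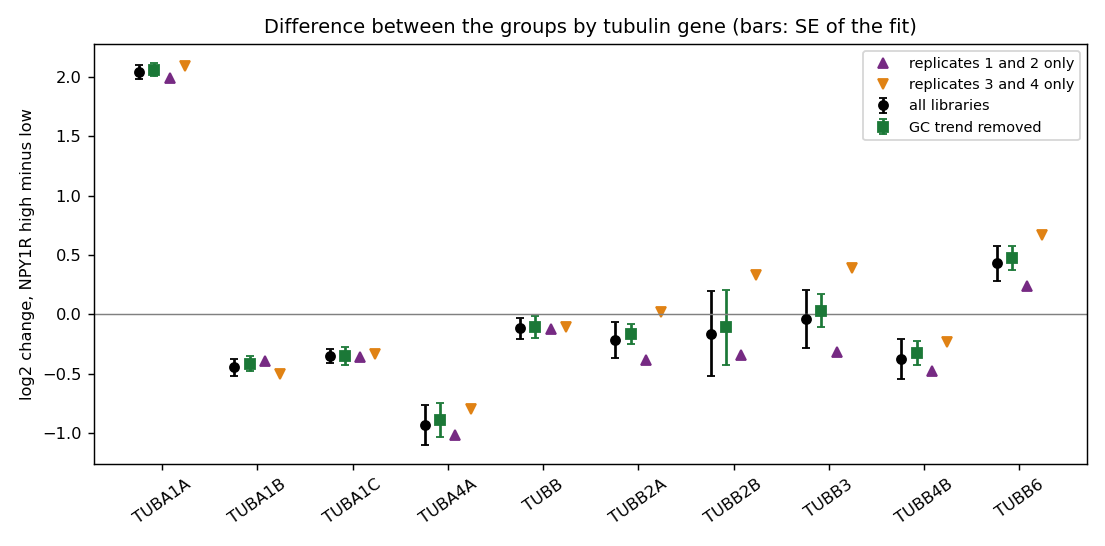
Log2 difference between NPY1R high and NPY1R low for each tubulin gene from all libraries (black), with the GC trend removed (green), and between the group means of replicates 1 and 2 (purple) or 3 and 4 (orange); bars are the SE of the fit. The 4 estimates use the same libraries and are not independent of each other. They run from 1.99 to 2.09 for TUBA1A and fall on both sides of 0 for TUBB3 (-0.32 to 0.39).

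Levels of different genes are compared per kilobase of the principal transcript. TUBA1B was the highest, at 946.4 ± 83.4 CPM per kilobase in NPY1R high and 1289 ± 53.7 in NPY1R low (SD, n = 4 each), followed by TUBB at 583.2 ± 51.5 and 633.1 ± 62.4. TUBB4B (103.5 to 191.8 over all libraries) and TUBA1C (114.8 to 167.1) overlapped. TUBB3 ranged from 38.5 to 93.3. The place of TUBA1A differed between the groups at this length. In NPY1R high it stood at 57.2 ± 0.778 CPM per kilobase, above TUBB2A (18.9 ± 1.35), and in NPY1R low at 13.9 ± 0.816, below TUBB2A (21.9 ± 4.95). This order depends on the length used. Per kilobase of the median coding transcript (984 bases for TUBA1A, 1595 for TUBB2A), TUBA1A stood above TUBB2A in both groups. TUBB6 ranged from 4.27 to 7.91, TUBA4A from 1.53 to 3.86 and TUBB2B from 0.382 to 1.62, the last 2 overlapping.

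TUBA1A made up 4.67%, 4.75%, 5.51% and 5.52% of the alpha level per kilobase in NPY1R high replicates 1 to 4. In NPY1R low replicates 1 to 4 it made up 0.937%, 0.940%, 0.898% and 1.04%. The 2 groups are far apart, with means of 5.11% ± 0.467 and 0.953% ± 0.0601 (SD, n = 4 each). Of the counts of TUBA1A, TUBA1B and TUBA1C together, TUBA1A took 5.02% to 5.90% in NPY1R high and 0.971% to 1.12% in NPY1R low. The 95% Wilson interval of this share was at most 0.4996 percentage points wide in any library, which covers counting error only. TUBA1B held 84.0% ± 0.824 in NPY1R high and 88.3% ± 0.336 in NPY1R low. TUBA1C held 10.7% ± 0.371 and 10.5% ± 0.346, overlapping between the groups. TUBA1B remained the main alpha gene in all 8 libraries.

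Within the beta class, TUBB held 72.7% ± 1.15 of the level in NPY1R high and 71.3% ± 3.97 in NPY1R low. TUBB4B held 15.4% ± 0.688 and 17.8% ± 1.87, TUBB3 8.60% ± 0.845 and 7.75% ± 1.85, and TUBB2A 2.35% ± 0.123 and 2.43% ± 0.216 (SD, n = 4 each). These 4 shares overlapped between the groups. TUBB6 held 0.908% ± 0.0810 and 0.600% ± 0.0538, with no overlap.

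Summed over the members, alpha tubulin stood at 1126 ± 88.5 CPM per kilobase in NPY1R high and 1460 ± 63.6 in NPY1R low (SD, n = 4 each), without overlap. Beta tubulin stood at 803.1 ± 78.1 and 893.2 ± 133.9, with overlap. The alpha to beta ratio ran from 1.37 to 1.47 in NPY1R high and from 1.51 to 1.94 in NPY1R low, where replicate 4 was highest. The 10 genes together took from 0.361% to 0.494% of all counts of a library.

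**Figure D3:**
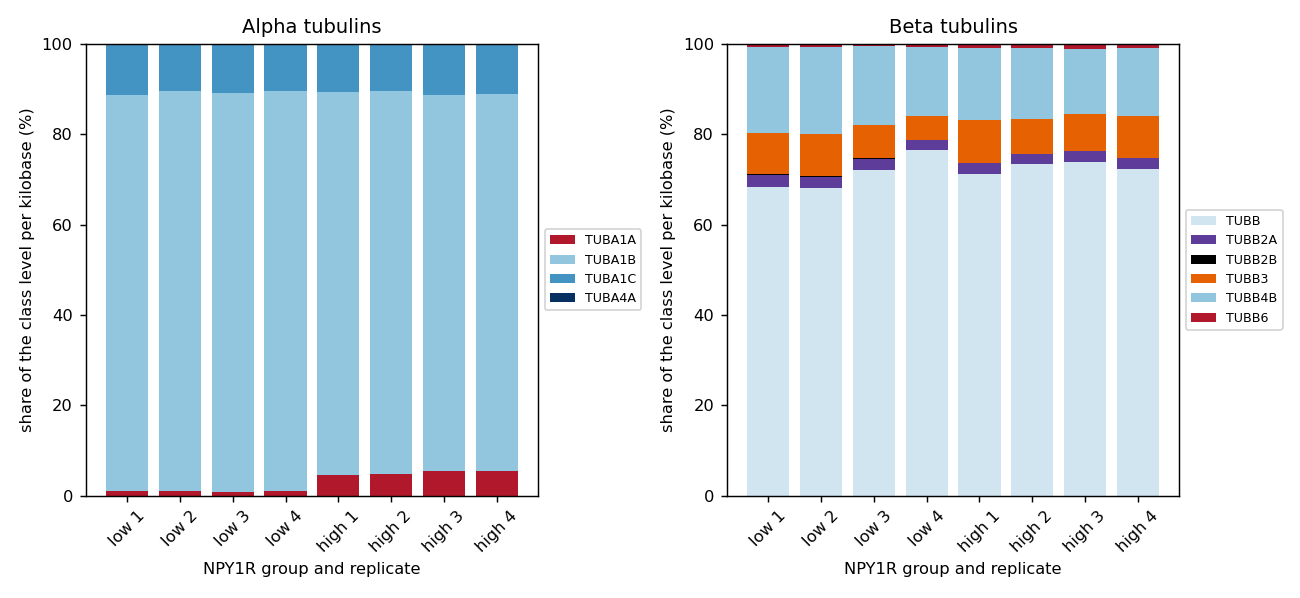
Share of each gene in the summed level per kilobase of the alpha (left) and beta (right) members, in percent, as stacked bars for the 4 NPY1R low and 4 NPY1R high libraries. The red TUBA1A band is 0.898% to 1.04% in NPY1R low and 4.67% to 5.52% in NPY1R high.

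By root mean square difference of centred log2 CPM over the 8 libraries, the 3 genes most like TUBA1A were TMEM64 (0.12), SDC2 (0.16) and NCAM2 (0.19). TMEM64 had a log2 difference of 2.02, SDC2, a heparan sulfate proteoglycan, 2.19, and NCAM2, a neural cell adhesion molecule, 1.89. Those most like TUBA1B were LNX1, ERGIC1 and DDIAS, with differences of 0.04 to 0.05 from it. Those most like TUBB were GAPDH, NFE2L1 and DHX38, with differences of 0.02 to 0.03.

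The partner lists held 117 genes, and 102 of them passed the filter. By the quasi-likelihood test of edgeR, adjusted over all genes, 3 rose and 14 fell, 16.7% of those tested, against 13.6% of all tested genes. Most partner genes therefore did not pass. The median log2 change of the partner genes was -0.08. This count depended on scaling and on single libraries: 3 rose and 8 fell with median-of-ratios factors, 5 and 7 with upper-quartile factors, and 3 and 6 with library totals. With the GC trend removed, 4 rose and 19 fell. The genes named below only for a call in that fit were chosen after their values were seen. Without each library in turn, 1 to 3 rose and 5 to 13 fell. Leaving out NPY1R low replicate 1 gave the fewest falls (5), and each other library except NPY1R low replicate 4 (13) gave 6 to 9. Without both NPY1R high replicate 3 and NPY1R low replicate 4, 4 rose and 12 fell. Of the 17 called genes, DCLK1, MAP1B, MAPT, CKAP5 and MZT1 kept the call in all 22 alternative fits of each gene, and 12 lost it in at least 1.

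Of 27 tested genes that bind microtubules or set their dynamics, 1 rose and 6 fell. MAPT, which encodes tau, had 29.96, 28.8, 23.7 and 30.4 CPM in NPY1R high and 18.3, 16.7, 18.1 and 18.5 CPM in NPY1R low. All NPY1R high libraries were above all NPY1R low libraries, and MAPT rose by a log2 of 0.65 (SE 0.09, edgeR quasi-likelihood adjusted p 0.0012). DCLK1, a doublecortin-like kinase that binds microtubules, had 10.03, 10.6, 12.5 and 14.2 CPM in NPY1R high and 30, 28.1, 27.0 and 29.1 CPM in NPY1R low. It fell, with a log2 change of -1.28 (SE 0.11, edgeR quasi-likelihood adjusted p 6.6e-05).

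MAP1B, a microtubule-associated protein of neurons, fell, with means of 6.22 ± 0.732 CPM in NPY1R low and 2.56 ± 1.02 CPM in NPY1R high (SD, n = 4 each). Its log2 change was -1.27 (SE 0.26). CKAP5, the microtubule polymerase also called chTOG, fell from 402.2 ± 29.5 to 292.4 ± 12.1 CPM, a log2 change of -0.46 (SE 0.06). Their edgeR adjusted p-values were 0.00903 and 0.000909. MAP7 (-0.32, SE 0.09), EML4 (-0.23, SE 0.05) and MAPRE1 (-0.17, SE 0.05), which encodes the plus-end protein EB1, fell by less, and their calls were lost in 14, 7 and 17 of 22 alternative fits. STMN1, a protein that sequesters tubulin dimers, had a log2 change of -0.20 (SE 0.06, edgeR adjusted p 0.0632). It fell once the GC trend was removed, at -0.23 (SE 0.04, edgeR adjusted p 0.00218). That fit also called CLASP1 lower (-0.21) and did not call MAP7 (edgeR adjusted p 0.0577).

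Among 19 tested genes of microtubule nucleation (the gamma-tubulin ring complex and augmin), 1 rose and 3 fell. MZT1, a small ring complex subunit, fell, with means of 65.5 ± 6.90 CPM in NPY1R low and 46.5 ± 5.98 CPM in NPY1R high (SD, n = 4 each). Its log2 change was -0.49 (SE 0.11). CDK5RAP2 (-0.29, SE 0.06) and NEDD1 (-0.21, SE 0.06), which bring the ring complex to centrosomes, also fell, and HAUS1, an augmin subunit, rose by 0.26 (SE 0.07). NEDD1 lost its call in 17 of 22 alternative fits, HAUS1 in 5, among them the fit with the GC trend removed (edgeR adjusted p 0.0758), and CDK5RAP2 in 1. Of the other tubulins, 7 of 12 were tested. TUBD1 (-0.35, SE 0.09), delta tubulin of the centriole, and TUBAL3 (-0.70, SE 0.17), an alpha-like tubulin at 1.27 CPM in NPY1R high, fell, and their calls were lost in 11 and 8 of 22 alternative fits. TUBG1, the main gamma tubulin, had a log2 change of -0.35 (SE 0.18, edgeR adjusted p 0.253). TUBG1 passed in edgeR with the replicate block (adjusted p 0.0311), with a term splitting replicates 1 and 2 from 3 and 4 (0.0181), with the GC offset and block (0.00417) and without NPY1R low replicate 4 (0.0388). TUBA3C had 0 counts in every library, and a count of 0 is compatible with up to 3.

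Of the 21 genes of tubulin folding (prefoldin, the CCT chaperonin and the tubulin cofactors), 2 fell, the chaperonin subunits CCT5 (-0.19, SE 0.05) and CCT7 (-0.19, SE 0.05), and their calls were lost in 16 and 14 of 22 alternative fits. Removal of the GC trend left 4 that fell, with the subunits TCP1 (-0.17) and CCT4 (-0.22) added. Of the severing enzymes, KATNAL1 rose by 0.40 (SE 0.11) and KATNA1 fell, with -0.38 (SE 0.11), out of 7 tested, and these calls were lost in 7 and 15 fits.

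None of the 17 tested tubulin-modifying enzymes passed edgeR's quasi-likelihood test, with 5 at an unadjusted p under 0.05. DESeq2 called 1, TTLL3, a glycylase (log2 change 1.17, edgeR adjusted p 0.0988, DESeq2 adjusted p 0.0466), named here after its values were seen, and limma-voom called 0. With the GC trend removed, edgeR called 2 higher, TTLL3 (1.21, adjusted p 0.0489) and VASH1, a tubulin detyrosinase (0.51, adjusted p 0.0441). TTL, which restores the alpha tubulin tyrosine, had 126.9 ± 18.2 and 123.9 ± 11.1 CPM in NPY1R high and low (SD, n = 4 each). HDAC6, a tubulin deacetylase, had 50.5 ± 3.66 and 54.5 ± 7.11 CPM, and ATAT1, the tubulin acetylase, 3.95 ± 0.382 and 3.85 ± 0.791 CPM. None of the 4 autoregulation genes passed in edgeR, DESeq2 or limma-voom, with 2 at an unadjusted p under 0.05 in edgeR. With the GC trend removed, 2 of the 4 fell in edgeR, the deadenylase complex subunits CNOT1 (-0.22, adjusted p 0.0302) and CNOT11 (-0.17, adjusted p 0.0367). TTC5 had 22.9 ± 0.576 and 21.5 ± 1.19 CPM, with a log2 change of 0.09 (SE 0.07, edgeR adjusted p 0.485).

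Genes of the G2 and M phases, when spindles form, moved with the groups. All 14 listed genes fell in edgeR's quasi-likelihood test, where 7.81% of all tested genes did, with a median log2 change of -0.96. This list was set together with the partner lists, so its count is no independent evidence either. The mean log2 CPM of the 14 genes was 6.05 to 6.42 in NPY1R high libraries and 7.06 to 7.12 in NPY1R low libraries. MKI67 fell from 87.7 ± 9.61 to 44.6 ± 6.30 CPM (SD, n = 4 each). TUBA1B, TUBA1C and TUBA4A were lower in the same libraries and TUBA1A higher, and the part of the cell cycle in the tubulin differences was not tested.

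**Figure D4:**
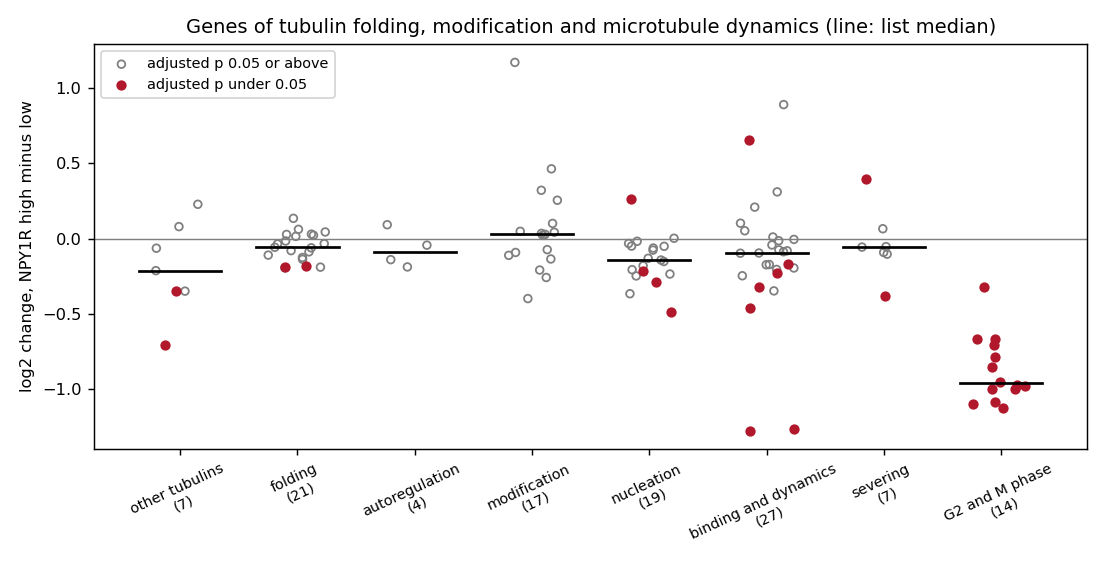
Log2 change, NPY1R high minus NPY1R low, of each tested gene in the partner lists and in the G2 and M phase list, with the number tested in parentheses. Filled red points have an edgeR quasi-likelihood adjusted p under 0.05, open points do not, and black lines are list medians; the G2 and M list sits at a median of -0.96, and the partner lists between -0.21 and 0.03.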

How the data were processed

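RNA was measured in 8 libraries of BT474 cells, 4 NPY1R high and 4 NPY1R low. The authors deposited expected counts for each gene symbol, with no scaling between libraries. Per the submitters' processing notes, STAR 2.5.2, RSEM 1.3.0 and the hg38 build were used. The annotation and filters are not given in the sources used here. The table of the whole series was used, in which 26475 genes were listed and every column matched a labelled sample.

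Expected counts were rounded and filtered with edgeR's filterByExpr (minimum count 10), which left 14008 genes. They were scaled by TMM and tested with the quasi-likelihood method of edgeR, with no covariate, with Benjamini-Hochberg adjustment over all genes and a threshold of 0.05. The software was edgeR 4.0.16 under R 4.3.3, with DESeq2 1.42.0 and limma 3.58.1 for alternatives. Log2 CPM used a prior count of 2. The procedure was run on simulated counts. These were drawn independently for each library, with no GC trend and no pairing, so the run says nothing about those features.

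The 10 tubulin genes and the lists of partner genes were chosen with earlier results of these data known. Partner genes were named if called (at most the 25 largest changes), and TTC5, TUBG1, STMN1, MAPT, MAPRE1, HDAC6, ATAT1, TTL and MKI67 whatever their p. Likeness between genes was the root mean square difference of log2 CPM, each centred on its own mean over the 8 libraries, among 10433 other genes with a mean CPM of at least 5. Lengths, GC content and coding sequences were those of GENCODE release 29, which gave 94.1% of tested genes a GC value. The planned length, the median coding transcript, took in truncated models (584 bases for TUBA1B). Levels per kilobase therefore used the principal transcript, a choice made after the lengths were seen, with the median as an alternative. Other alternatives were other scalings, filters and tools, a replicate block, a term for replicates 1 and 2 against 3 and 4, removal of each library's GC trend (a spline with 5 degrees of freedom), leaving out libraries, and summing near-identical paralogs. Leaving out NPY1R high replicate 3 and NPY1R low replicate 4 together was chosen after seeing the data.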

Additional observations from a re-analysis of the deposited data

How the results depend on the processing

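For the 10 tubulin genes, 215 of 215 log2 differences under the alternatives moved by less than the spread between libraries. The spread was the pooled SD of log2 CPM within groups. Leaving out a single library can hardly move a difference that far, so those fits were no test of stability. Calls were less stable. Among other changes in edgeR, TUBB4B and TUBB2A gained a call without NPY1R low replicate 4, and TUBB6 with upper-quartile factors. TUBA1A ranged from 2.00 to 2.10, TUBA1B from -0.49 to -0.37, TUBA1C from -0.38 to -0.28, TUBA4A from -1.02 to -0.82, TUBB from -0.16 to -0.04, TUBB2A from -0.32 to -0.07, TUBB4B from -0.49 to -0.25 and TUBB6 from 0.36 to 0.55. TUBB3 ranged from -0.21 to 0.13 and TUBB2B from -0.41 to 0.09, so neither has a direction. Of 120 alternative shares, 117 moved by less than the pooled SD of the share within groups. Most of these alternatives left out a single library, which can hardly move a share that far. With the median coding transcript as the length, the difference in share was 3.03 percentage points for TUBA1A, -3.23 for TUBA1B and 0.843 for TUBB6, against 4.16, -4.29 and 0.308. That length counts truncated transcript models.

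Partner genes that rose numbered 5 with upper-quartile factors, DESeq2, the replicate block and a term splitting replicates 1 and 2 from 3 and 4, 7 with the GC offset and replicate block, and 1 at an adjusted p under 0.01. Those that fell numbered 8 with median-of-ratios factors, 7 with upper-quartile factors, another TMM reference, no filter or 10 counts in every library, 6 with library totals, 9 with the replicate block, 25 with the GC offset and replicate block, and 4 at 0.01. Leaving out each library gave 1 to 3 that rose and 5 to 13 that fell. Over all genes, 810 rose and 1094 fell (42.5% higher), against 56.3% higher with upper-quartile factors. The term splitting the replicates gave 1681 that fell, the GC offset with the replicate block 1768, and an adjusted p under 0.01 gave 470 and 562. Leaving out each library gave 624 to 1068 that rose and 625 to 1064 that fell. The median change of all genes stayed between -0.04 and 0.03. Neither TTL nor ATAT1 was called, and both changed sign when some libraries were left out. TTL ranged from -0.0435 to 0.133 (-0.006 without NPY1R high replicate 1, -0.0435 without NPY1R high replicate 2, -0.017 without NPY1R low replicate 3), and ATAT1 from -0.013 to 0.151 (-0.006 without NPY1R high replicate 1, -0.013 without NPY1R low replicate 1). The causes were not tested.

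The main fit did not treat same-numbered replicates as pairs, since the labels name no pairing. Same-numbered libraries deviated together at 0.339, 0.157, 0.0907 and 0.0178 across genes, all positive. Of 8 libraries, 2 correlated best with their own number. So few libraries cannot decide whether the numbers mark pairs. In the column headers the running numbers alternate between the groups, and their meaning is not given. With the replicate block, 805 genes rose and 1028 fell. None of 40 group values of the tubulin genes stood out by Dixon's test.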
